A study of Mus musculus with 12 samples.

Results

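The core circadian clock genes are the small set of transcription factors and repressors whose mutual regulation keeps time within a cell. Of the 49584 genes in the deposited table, 10 were taken as members by their gene symbol: Arntl, Clock, Npas2, Per1, Per2, Per3, Cry1, Cry2, Nr1d1 and Nr1d2. Each symbol had 1 row, and all 10 were among the 12434 genes that reached 1 FPKM (reads scaled to gene length and to the library's total) in at least 3 of the 12 libraries. The libraries are RNA sequencing of mouse liver from animals of strain C57BL/6/129/SvJ in 4 groups of 3: wild type (WT) given saline, WT given ENU, Tert-/- given saline and Tert-/- given ENU. Tert encodes telomerase reverse transcriptase, the catalytic part of telomerase, and the Tert-/- animals are labelled G1, the generation label of the knockout line. ENU, N-ethyl-N-nitrosourea, is an alkylating mutagen, and it was injected into the peritoneum at 150 µg per g. Livers were collected 24 h after the injection from animals matched for age. The labels do not say that each library is a separate animal, so the p-values below measure the spread between libraries. No source used here gives the hour of the day at collection or the light schedule.

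In the mammalian clock, BMAL1 (the protein of Arntl) pairs with CLOCK, or with its relative NPAS2, and switches on the Per and Cry genes through E-box elements in DNA. PER and CRY proteins accumulate, return to the nucleus and repress that same activator, which closes the loop. The activator also drives Nr1d1 and Nr1d2, which encode the nuclear receptors REV-ERB alpha and beta; these bind ROR elements and repress Arntl, Clock, Npas2 and Cry1. In mouse liver the transcripts therefore peak in a known order: Nr1d1 in the light phase, Nr1d2, Per3 and the output regulator Dbp towards its end, Per1 and Per2 around dusk, Cry1 during the night, and Arntl, Npas2 and Clock from late night to early morning. Per1 and Per2 are also known to respond acutely to stress hormones and fasting in liver, whatever the hour.

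The promoters of several members carry the elements through which this loop is wired, and 4 of them are shown for that reason, with the 250 bases before an annotated start, read 5′ to 3′ on the gene's strand from RefSeq on GRCm38.p6. Sequences were found for 9 of the 10 members; Per2 is named here without one. Capitals mark an exact match to a searched motif on either strand. The Per3 window is chr4:151044666-151044915 on the minus strand, the Cry1 window chr10:85185055-85185304 on the minus strand, the Per1 window chr11:69098699-69098948 on the plus strand and the Nr1d1 window chr11:98775378-98775627 on the minus strand.
Per3: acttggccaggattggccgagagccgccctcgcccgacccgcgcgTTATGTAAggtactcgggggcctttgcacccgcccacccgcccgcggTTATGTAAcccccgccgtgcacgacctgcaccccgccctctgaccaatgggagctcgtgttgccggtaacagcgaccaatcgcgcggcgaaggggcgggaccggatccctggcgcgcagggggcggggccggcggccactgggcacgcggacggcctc
Cry1: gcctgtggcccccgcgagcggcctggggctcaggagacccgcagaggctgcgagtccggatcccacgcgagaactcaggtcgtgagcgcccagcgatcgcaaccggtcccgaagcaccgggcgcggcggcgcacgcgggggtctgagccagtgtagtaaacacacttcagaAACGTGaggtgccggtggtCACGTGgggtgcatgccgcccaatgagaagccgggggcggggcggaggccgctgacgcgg
Per1: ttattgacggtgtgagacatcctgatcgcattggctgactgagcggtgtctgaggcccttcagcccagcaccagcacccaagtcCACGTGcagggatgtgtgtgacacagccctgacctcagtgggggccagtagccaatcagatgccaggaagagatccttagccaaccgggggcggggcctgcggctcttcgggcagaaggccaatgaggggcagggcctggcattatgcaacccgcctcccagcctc
Nr1d1: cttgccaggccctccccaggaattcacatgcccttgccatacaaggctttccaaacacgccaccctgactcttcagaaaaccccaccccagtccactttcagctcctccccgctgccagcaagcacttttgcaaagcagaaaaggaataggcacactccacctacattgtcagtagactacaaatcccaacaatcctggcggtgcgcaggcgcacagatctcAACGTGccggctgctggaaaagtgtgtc
Per3 held the D-box letters TTATGTAA, at positions -205 and -158 from the start; this is the site of the DBP, TEF and HLF activators and of the repressor NFIL3. Its 8 letters occurred in 0.94% of 32817 mouse promoter windows of 250 bases before and 50 after the start. Cry1 and Per1 each held the E-box CACGTG, at -60 and -166, which 7.15% of windows hold. The E-box-like letters CACGTT, found in 4.69% of windows, occurred on the reverse strand of Cry1 at -79, of Cry2 at -166 and of Nr1d1 at -28, where they read AACGTG on the gene's strand. The last sequence is a 30-base stretch of Arntl, chr7:113207529-113207558 on the plus strand, with the ROR element core TAGGTCA in capitals at position 31 after an annotated start; 2.61% of windows hold those letters.
Arntl: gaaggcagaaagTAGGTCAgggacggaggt
The D-box form TTACGTAA, found in 0.12% of windows, the ROR element core TGGGTCA, in 3.98%, and the cyclic AMP element TGACGTCA, in 1.79%, had no exact match in the windows of these members. A match is a description of the letters in the window.

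Between 30053737 and 43680169 reads fell in genes per library. Tert itself was listed at 1.61 to 6.23 FPKM in the 6 WT libraries and at 0.304 to 1.62 FPKM in the 6 Tert-/- libraries, with no overlap within saline or within ENU; the part of the gene that was deleted is not given, so where the remaining reads fall is not known here. The damage response was present after ENU: 5 of 6 p53 target genes chosen as a check passed the test in WT and 6 of 6 in Tert-/-, all higher. Hepatocyte markers dominated every library, with summed levels of 35793 to 93752 FPKM for Alb, Apoa1, Ttr, Serpina1a, Cps1 and Hnf4a. Library 2 of Tert-/- saline stood apart. It had reads in 17486 genes against 19576 to 20310 in the others, its 20 most abundant genes took 29.53% of reads against 17.36% to 21.69%, and its median-ratio scaling factor was 0.6539 against 0.9941 to 1.1273. Its log2 difference from the other 2 libraries of its group ran with gene length (Spearman rho -0.46 across 12434 genes, which are not independent), where the same measure was 0.31 and 0.45 for those 2 libraries and -0.14 to 0.17 in the other groups. Where leaving this library out changed a call on a member in a comparison that includes its group, both values are given. Both are also given for some members whose value moved by over 1.5 times, and for others the levels in that library are given. Across all tested genes, FPKM values also shifted as a whole between groups: the median log2 difference was 0.10 for ENU in WT, 0.24 for ENU in Tert-/- and -0.19 for Tert-/- against WT in saline, and each lay within 0.01 of 0 after median-ratio rescaling.

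Arntl (ENSMUSG00000055116; mm10 chromosome 7, 113207465 to 113314126, plus strand) gave the clearest split of the libraries. In WT saline it was 9.63, 7.80 and 9.22 FPKM, and in WT ENU 10.1, 3.32 and 2.14 FPKM. In Tert-/- saline it was 0.744, 0.264 and 0.636 FPKM, and in Tert-/- ENU 1.77, 2.94 and 0.843 FPKM. The 3 WT saline libraries and WT ENU 1 were high, and the other 8 libraries were low, with no value between 3.32 and 7.80 FPKM. By group mean the order was WT saline (8.89 ± 0.961 FPKM, SD, n = 3), WT ENU (5.19 ± 4.30), Tert-/- ENU (1.85 ± 1.05) and Tert-/- saline (0.548 ± 0.252). WT saline and WT ENU overlapped, and so did WT ENU and Tert-/- ENU. The 3 WT ENU libraries lay on both sides of the gap.

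Npas2 (ENSMUSG00000026077; chromosome 1, 39193731 to 39363236, plus strand), the partner that can take the place of CLOCK, followed the same division more sharply. It was 4.29, 2.93 and 5.03 FPKM in WT saline and 3.61, 0.297 and 0.0397 FPKM in WT ENU. In Tert-/- saline it was 0.016, 0.091 and 0.114 FPKM, from 1, 5 and 7 reads, and in Tert-/- ENU 0.0160, 0.172 and 0 FPKM, from 1, 12 and 0 reads. The value of 0, in Tert-/- ENU 3, allows up to 3 reads or 0.04 FPKM by counting error alone. Npas2 was thus close to its detection floor in 6 of 6 Tert-/- libraries and in WT ENU 3, and at least 2.93 FPKM in the same 4 libraries that were high in Arntl.

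Clock (ENSMUSG00000029238; chromosome 5, 76209868 to 76304792, minus strand), the usual partner of BMAL1, varied less. It was 10.27, 11.21 and 10.97 FPKM in WT saline, 11.9, 10.7 and 7.05 FPKM in WT ENU, 5.22, 1.62 and 7.23 FPKM in Tert-/- saline and 7.24, 11.4 and 5.49 FPKM in Tert-/- ENU. The 3 Tert-/- saline libraries lay below the 3 WT saline libraries, while the ENU groups overlapped each other and Tert-/- saline. Its highest library exceeded its lowest 7.34 times, against 38.24 times for Arntl.

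**Figure D1:**
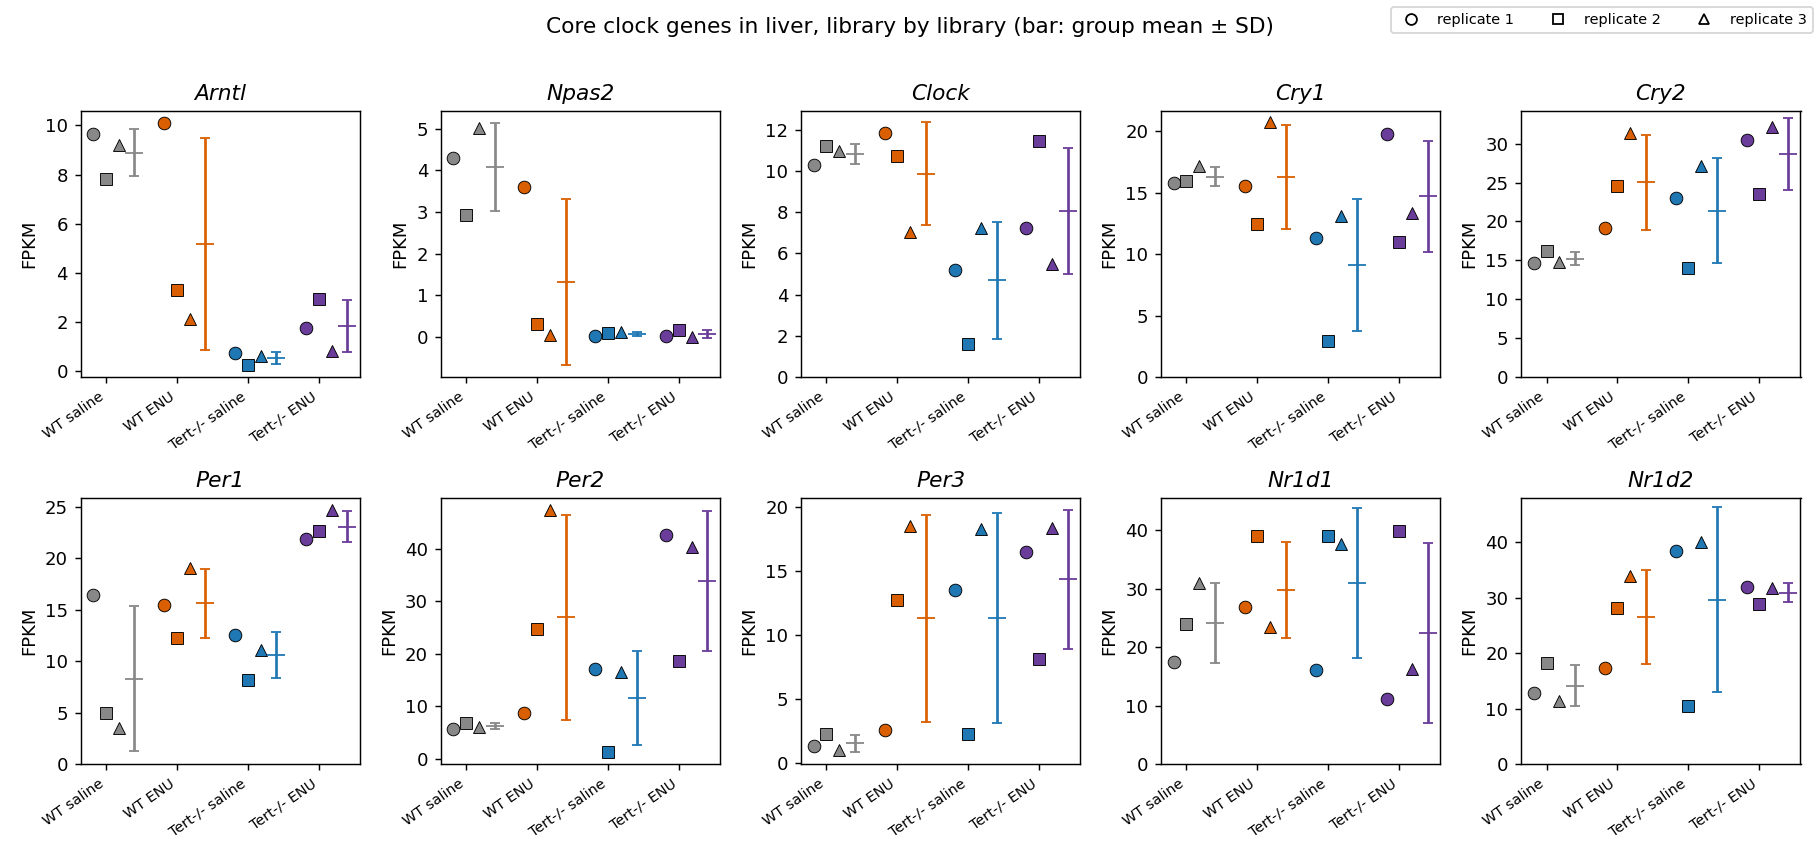
FPKM of the 10 core clock genes (vertical axis, linear, a panel for each gene) in the 4 groups of 3 libraries; circles, squares and triangles are replicates 1, 2 and 3, and the bar beside each group is its mean ± SD. Arntl and Npas2 separate the WT saline libraries and WT ENU 1 from the other 8, Per3 and Per2 are low in those same 4 libraries, and Tert-/- saline 2 is the lowest library for Clock, Cry1, Per2 and Nr1d2.

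Nr1d1 (ENSMUSG00000020889; chromosome 11, 98767932 to 98775333, minus strand), the repressor of Arntl, did not follow the groups. It was 17.4, 24.0 and 31.1 FPKM in WT saline and 26.8, 39.1 and 23.5 FPKM in WT ENU. It was 16.15, 39.05 and 37.65 FPKM in Tert-/- saline and 11.2, 39.9 and 16.2 FPKM in Tert-/- ENU. Every pair of groups overlapped, and the highest and lowest of all 12 libraries, 39.9 and 11.2 FPKM, were both in Tert-/- ENU. WT ENU 2, Tert-/- saline 2 and 3 and Tert-/- ENU 2 formed the upper end, from 37.65 FPKM up. Nr1d1 shares 1075 bases with Thra on the opposite strand, a thyroid hormone receptor gene at 13.2 to 26.5 FPKM, and since the strand setting of the counting is not given, reads in the overlap cannot be told apart.

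Nr1d2 (ENSMUSG00000021775; chromosome 14, 18204054 to 18239127, minus strand), its paralog, behaved otherwise. It was 12.8, 18.3 and 11.4 FPKM in WT saline, 17.3, 28.2 and 34.0 FPKM in WT ENU, 38.4, 10.4 and 40.1 FPKM in Tert-/- saline and 32.0, 28.9 and 31.8 FPKM in Tert-/- ENU. The 4 libraries high in Arntl held 11.4 to 18.3 FPKM, and 7 of the other 8 held 28.2 to 40.1 FPKM; the exception was Tert-/- saline 2, the lowest of all.

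Per3 (ENSMUSG00000028957; chromosome 4, 151003652 to 151044665, minus strand), a period gene whose loss leaves the rhythm largely intact, was the mirror image of Arntl. It was 1.30, 2.27 and 0.988 FPKM in WT saline, 2.58, 12.7 and 18.5 FPKM in WT ENU, 13.5, 2.26 and 18.2 FPKM in Tert-/- saline and 16.5, 8.13 and 18.4 FPKM in Tert-/- ENU. The 4 libraries high in Arntl and Tert-/- saline 2 were at or below 2.58 FPKM, and the other 7 were at or above 8.13 FPKM. Per3 lies inside Camta1 on the same strand, a gene at 1.14 to 2.26 FPKM in these libraries.

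Per2 (ENSMUSG00000055866; chromosome 1, 91415982 to 91459324, minus strand), an essential repressor of the loop, spanned the widest range on the log2 scale after pseudocount. It was 5.80, 6.85 and 6.15 FPKM in WT saline and 8.74, 24.7 and 47.5 FPKM in WT ENU. It was 17.1, 1.36 and 16.5 FPKM in Tert-/- saline and 42.7, 18.6 and 40.4 FPKM in Tert-/- ENU. In each genotype the 3 ENU libraries lay above the 3 saline libraries, by a small margin at the edge in each case: WT ENU 1 at 8.74 against 6.85 FPKM, and Tert-/- ENU 2 at 18.6 against 17.1 FPKM.

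Per1 (ENSMUSG00000020893; chromosome 11, 69095217 to 69109960, plus strand), the period gene known for rapid induction by hormones, was 16.4, 4.94 and 3.52 FPKM in WT saline and 15.5, 12.3 and 19.1 FPKM in WT ENU. In Tert-/- saline it was 12.6, 8.18 and 11.05 FPKM, and in Tert-/- ENU 21.85, 22.63 and 24.75 FPKM. Tert-/- ENU was the highest group with no overlap with any other, and WT saline 1 stood far from its replicates at a level within the range of WT ENU. In Arntl, Npas2, Per2 and Per3 that library lay beside WT saline 2 and 3.

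Cry1 (ENSMUSG00000020038; chromosome 10, 85131700 to 85185064, minus strand) and Cry2 (ENSMUSG00000068742; chromosome 2, 92403646 to 92434043, minus strand) encode the cryptochromes that carry most of the repression. Cry1 was 15.8, 16.0 and 17.2 FPKM in WT saline, 15.6, 12.5 and 20.8 FPKM in WT ENU, 11.3, 2.97 and 13.1 FPKM in Tert-/- saline and 19.78, 11.02 and 13.39 FPKM in Tert-/- ENU. Cry2 was 14.66, 16.15 and 14.75 FPKM in WT saline, 19.2, 24.5 and 31.4 FPKM in WT ENU, 23.03, 14.04 and 27.13 FPKM in Tert-/- saline and 30.4, 23.5 and 32.2 FPKM in Tert-/- ENU. Cry1 was lower in all Tert-/- saline than in all WT saline libraries, and Cry2 was higher in all WT ENU than in all WT saline libraries. Cry2 was the steadiest member, with 2.29 times between its lowest and highest library. It overlaps D930015M05Rik on the opposite strand, which reached at most 1.28 FPKM.

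As a set the members were more variable than most transcripts. The SD of log2(FPKM + 1) over the 12 libraries exceeded that of 99.5% of the 12434 tested genes for Per2 and Per3, of 99.2% for Arntl and of 99.0% for Npas2. It exceeded that of 96.6% for Per1, 93.6% for Nr1d2, 93.1% for Clock, 92.1% for Cry1, 89.0% for Nr1d1 and 69.2% for Cry2. These ranks include Tert-/- saline 2, which lay far from the gene mean for Cry1 (-1.83), Clock (-1.73) and Nr1d2 (-1.07). The other libraries lay between -0.23 and 0.63 for Cry1 and between -0.48 and 0.57 for Clock. Ranks without that library were not computed. For Nr1d1 the SD within groups (0.63) was as large as that over all libraries (0.59). For Arntl the SD within groups was 0.57 against 1.16 over all libraries.

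Read library by library, the 10 genes fell into a few combinations. WT saline 1, 2 and 3 and WT ENU 1 shared Arntl at 7.80 to 10.1 FPKM and Npas2 at 2.93 to 5.03 FPKM with Per3 at 0.988 to 2.58 FPKM, Per2 at 5.80 to 8.74 FPKM and Nr1d2 at 11.4 to 18.3 FPKM. By these genes, in the known order of the liver clock, that combination belongs to late night and early morning. Nr1d1, which peaks in the light phase, was 17.4 to 31.1 FPKM in the same 4 libraries. It was lower, at 11.2 and 16.2 FPKM, in Tert-/- ENU 1 and 3, so it was not at its lowest in this combination. WT ENU 2, Tert-/- saline 3 and Tert-/- ENU 2 combined Nr1d1 at 37.65 to 39.92 FPKM with Per2 at 16.5 to 24.7 FPKM and Arntl at 0.636 to 3.32 FPKM. By Nr1d1 and Per2 this is the combination of a point before the Per2 maximum. Other members differed between these libraries, in the same order: Per3 was 12.7, 18.2 and 8.13 FPKM, Clock 10.7, 7.23 and 11.4 FPKM, and Per1 12.3, 11.05 and 22.63 FPKM. WT ENU 3, Tert-/- ENU 1 and Tert-/- ENU 3 combined Per2 at 40.4 to 47.5 FPKM and Per3 at 16.5 to 18.5 FPKM with Nr1d1 at 11.2 to 23.5 FPKM, the combination of the later part of the light phase towards dusk. All of these were ENU libraries, and Per2 can respond acutely to stress whatever the hour. Clock phase and an acute response to ENU therefore cannot be told apart in them. Tert-/- saline 1 combined Nr1d2 at 38.4 FPKM and Per3 at 13.5 FPKM with Per2 at 17.1 and Nr1d1 at 16.15 FPKM. Tert-/- saline 2 matched none of them: its Arntl, Clock, Cry1, Cry2, Per2 and Nr1d2 were each the lowest of the 12 while its Nr1d1 was 39.05 FPKM, and this is the library that stood apart in its overall composition. The combinations are a description of relative levels in single libraries, they do not give an hour, and in bulk tissue fewer cells of a type and less RNA per cell cannot be told apart.

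**Figure D2:**
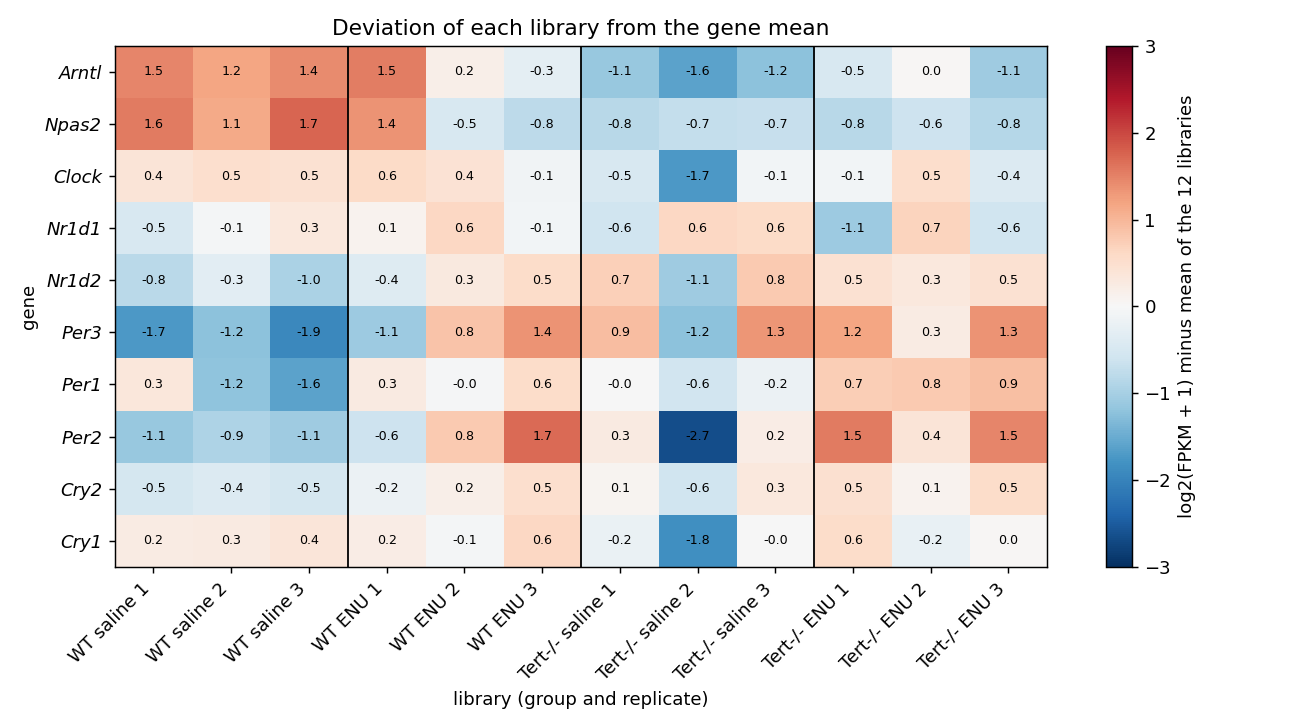
Deviation of each library from the gene's mean over the 12 libraries, as log2(FPKM + 1) (colour, and the printed value), for the 10 genes in rows and the 12 libraries in columns; black lines separate the groups. The 3 WT saline columns and WT ENU 1 are red for Arntl and Npas2 and blue for Per3 and Per2, and Tert-/- saline 2 is blue for every gene but Nr1d1.

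Ratios between members within a library, which do not depend on how a library was scaled, showed the same division. They do not remove differences that run with gene length, as seen between the Tert-/- saline libraries. The lengths that gave whole reads were 4193 bases for Per3 and 2624 for Arntl, and 3032 for Per2 and 1751 for Nr1d1. The ratio of Per3 to Arntl FPKM was 0.14, 0.29 and 0.11 in WT saline and 0.26 in WT ENU 1. It was 3.84 and 8.66 in the other WT ENU libraries, 18.17, 8.53 and 28.67 in Tert-/- saline and 9.29, 2.76 and 21.78 in Tert-/- ENU. No library lay between 0.29 and 2.76. By this ratio Tert-/- saline 2 stood with the other 7 libraries, although its Per3 level alone was low. The ratio of Per2 to Nr1d1, which sets a dusk transcript against a daytime one, was 0.33, 0.29 and 0.20 in WT saline and 0.33, 0.63 and 2.02 in WT ENU. It was 1.06, 0.03 and 0.44 in Tert-/- saline and 3.82, 0.47 and 2.49 in Tert-/- ENU, so that it was spread widely within 3 of the 4 groups.

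**Figure D3:**
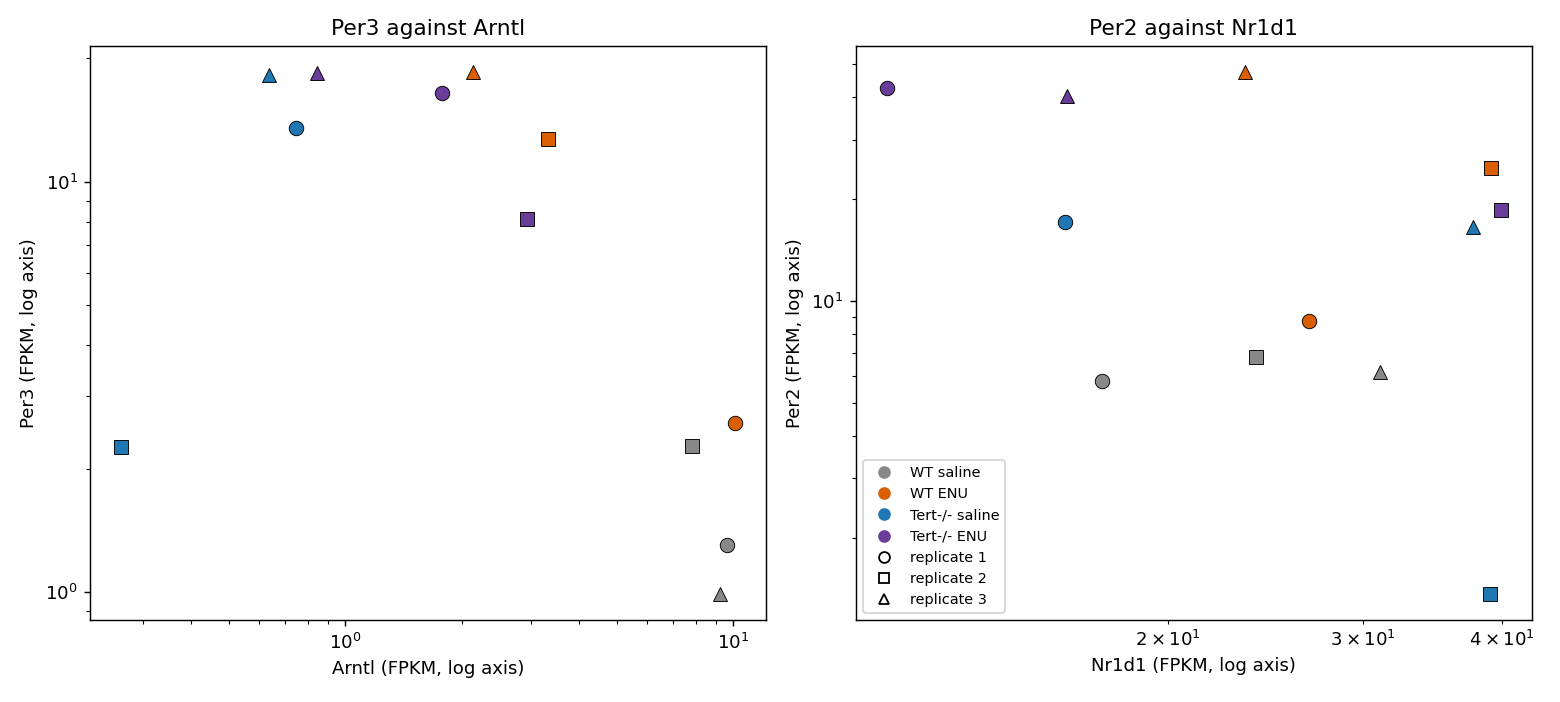
Left, Per3 against Arntl, and right, Per2 against Nr1d1, in FPKM on log axes; each point is a library, coloured by group and shaped by replicate number. On the left WT saline and WT ENU 1 form a cluster at high Arntl and low Per3 apart from 7 libraries at low Arntl and high Per3, with Tert-/- saline 2 low in both. On the right the groups are mixed along Nr1d1, while along Per2 WT saline (5.80 to 6.85 FPKM) lies below both ENU groups.

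Tert-/- against WT in saline compares the genotypes without the mutagen. All 3 WT saline libraries held the combination read above as late night and early morning, and no Tert-/- saline library did. Since the hour of collection is not given, genotype and clock phase at collection cannot be told apart in this comparison. The same holds for Dbp, Ciart and Usp2 below. Arntl was lower by 2.68 on the log2(FPKM + 1) scale (SE 0.40, limma adjusted p = 0.0154) and Npas2 by 2.22 (SE 0.43, adjusted p = 0.0225). Each was lower in 3 of 3 Tert-/- saline libraries than in every WT saline library. These were the 2 members called, both lower, where 5.01% of the 12434 genes tested were called in either direction. The whole-table median difference was -0.19. Clock (-1.21, SE 0.37, adjusted p = 0.0844) and Cry1 (-0.97, SE 0.40, adjusted p = 0.17) did not pass, although the groups did not overlap; 4 of 10 members did not overlap in this comparison and 25.9% of all tested genes. Per3 (1.97, SE 0.69, adjusted p = 0.114), Nr1d2 (0.83, SE 0.42, adjusted p = 0.257), Cry2 (0.42, SE 0.24, adjusted p = 0.313) and Nr1d1 (0.28, SE 0.44, adjusted p = 0.717) did not pass either. Without Tert-/- saline 2, limma called 5 members: Arntl (-2.54) and Npas2 (-2.23) lower, and Per3 (2.76, adjusted p = 0.0185), Nr1d2 (1.44, adjusted p = 0.00975) and Cry2 (0.69, adjusted p = 0.0384) higher. That fit called 1602 of the 12434 genes, against 623 with all libraries. Clock was then -0.72 (adjusted p = 0.0925), Cry1 -0.39 (adjusted p = 0.272), Nr1d1 0.07 (adjusted p = 0.942) and Per2, which was 0.32 (adjusted p = 0.809) with all libraries, 1.29 (adjusted p = 0.13). Without Tert-/- saline 3, Clock was called as well (-1.55, adjusted p = 0.032), in a fit that called 1451 genes. The call on Arntl was lost without WT saline 1 (adjusted p = 0.084) or 3 (0.051), and that on Npas2 without WT saline 1, 2 or 3 (0.11, 0.0611 and 0.073). The call on Npas2 was also lost without the filter on low values (adjusted p = 0.0541), with voom on recovered reads (0.0611) and with the 2 groups alone (0.0523). Over the 12 fits that leave out a library the difference stayed between -2.78 and -2.54 for Arntl and between -2.40 and -2.09 for Npas2. Markers of non-parenchymal cells moved with this contrast: 3 of 7 sinusoidal endothelial markers (Stab1, Oit3 and Pecam1), 1 of 6 Kupffer cell markers (Adgre1) and 1 of 6 stellate markers (Reln) were lower in Tert-/- saline. Their summed levels were 71.7 to 103 against 115 to 136 FPKM for endothelial, 99.1 to 205 against 169 to 320 FPKM for Kupffer cell and 59.1 to 71.4 against 96.5 to 123 FPKM for stellate markers, with no marker of these lists at 0. Their part in the clock gene differences was not tested.

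ENU against saline in WT compares the treatments with Tert intact. No member passed the test by limma, where 0.997% of genes were called, and none by voom on recovered reads. An unadjusted p under 0.05 was found for 6 members by limma and 7 by voom, and for 1574 and 1580 of the 12434 genes. The values were 2.001 for Per3 (SE 0.69, adjusted p = 0.25), 1.66 for Per2 (SE 0.73, adjusted p = 0.375), 1.08 for Per1 (SE 0.39, adjusted p = 0.272), 0.83 for Nr1d2 (SE 0.42, adjusted p = 0.449) and 0.66 for Cry2 (SE 0.24, adjusted p = 0.272). Npas2 (-1.44, SE 0.43, adjusted p = 0.172) and Arntl (-0.89, SE 0.40, adjusted p = 0.386) pointed the other way. WT ENU 1 carried levels like those of WT saline for Arntl, Npas2 and Per3, and the other 2 ENU libraries did not. Per2, Per3 and Cry2 did not overlap between the groups, as for 35.3% of tested genes. Without WT ENU 1, Npas2 was called (-2.11, adjusted p = 0.00129), and without WT saline 1, Per1 (1.66, adjusted p = 0.00944). Without Tert-/- saline 2, which is in neither group but enters the spread shared by all 4, Per3, Cry2 and Nr1d2 were called (adjusted p = 0.039, 0.0345 and 0.0388). These fits called 85, 49 and 1324 genes, against 124 with all libraries.

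ENU against saline in Tert-/- gave no called member by limma, where 9.58% of genes were called, and none by voom. An unadjusted p under 0.05 was found for 2 members by limma and 1 by voom, and for 3660 and 3247 of the 12434 genes. Per2 differed by 1.86 (SE 0.73, adjusted p = 0.123) and Per1 by 1.07 (SE 0.39, adjusted p = 0.102). Arntl differed by 0.83 (SE 0.40, adjusted p = 0.192), opposite in sign to WT, and Clock by 0.77 (SE 0.37, adjusted p = 0.191). Arntl, Per1 and Per2 did not overlap between the groups, all higher after ENU, as for 30.9% of tested genes. Without Tert-/- saline 2, whose Per2 was 1.36 FPKM against 17.1 and 16.5 FPKM in the other 2, Per2 was 0.89 (adjusted p = 0.288), Clock 0.29 (adjusted p = 0.492) and Nr1d1 -0.33 (adjusted p = 0.683, against -0.54 and 0.42 with it). No member then had an unadjusted p under 0.05, and the members' median difference was 0.20 against 0.68 with that library. Per1 passed without WT saline 1 (adjusted p = 0.019) and Clock without Tert-/- saline 3 (1.11, adjusted p = 0.0495). Those fits called 826 and 2795 genes, against 1191 with all libraries.

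Averaged over both genotypes, Per1 rose with ENU by 1.07 (SE 0.28, limma adjusted p = 0.0265) and Per2 rose by 1.76 (SE 0.52, adjusted p = 0.0431). These were the 2 members called, both higher, where 14.1% of genes were called. The whole-table median difference was 0.17. Cry2 (0.55, SE 0.17, adjusted p = 0.0513) and Per3 (1.29, SE 0.49, adjusted p = 0.0971) did not pass. After median-ratio rescaling, which removes the whole-table shift, Per1 was 0.88 (adjusted p = 0.0586) and Per2 1.60 (adjusted p = 0.0538), and no member was called. The calls also depended on single libraries: Per1 lost its call without any of 7 libraries (WT saline 2 or 3, WT ENU 1 or 3, or each Tert-/- ENU library; adjusted p up to 0.0714) and Per2 without any of 8 (each WT saline or Tert-/- ENU library, or WT ENU 2 or 3; adjusted p up to 0.103). Without WT ENU 1, 4 members were called (Npas2 lower, and Per2, Per3 and Cry2 higher), and without Tert-/- saline 3 another set of 4 (Per1, Per2, Per3 and Cry2, all higher). Without Tert-/- saline 2, Cry2 was called beside Per1 and Per2 (0.42, adjusted p = 0.0306). Over all genes, the fits without WT ENU 1, Tert-/- saline 3 and Tert-/- saline 2 called 1185, 2866 and 3445, against 1749 with all libraries. The differences themselves stayed between 0.88 and 1.37 for Per1 and between 1.27 and 2.07 for Per2. Erythroid markers fell with ENU in this contrast, 4 of 5, as did 3 of 7 sinusoidal endothelial, 1 of 6 Kupffer cell, 1 of 6 stellate and 1 of 6 hepatocyte markers, against none higher. The summed erythroid level was 127 to 143 FPKM in WT ENU against 213 to 411 FPKM in WT saline, and 105 to 124 FPKM in Tert-/- ENU against 187 to 837 FPKM in Tert-/- saline; Hba-a2 was at 0 in 2 ENU libraries. Lymphocyte markers summed to at most 2.61 FPKM in any library, with Cd3e, Ms4a1 and Nkg7 at 0 in 5, 4 and 6 libraries, and neutrophil markers to at most 32.1 FPKM, with Ly6g at 0 in 9. The part of these cells in the Per differences was not tested.

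Tert-/- against WT after ENU gave no called member and no called gene by limma (0% of 12434) or voom; 1 member, Arntl, had an unadjusted p under 0.05 by limma, and 541 genes did. Arntl was -0.97 (SE 0.40, adjusted p = 1), in a comparison where no gene was called. Per1 (0.55, SE 0.39, adjusted p = 1) was the only member whose groups did not overlap, as for 16.0% of tested genes. Nr1d1 was -0.56 (SE 0.44). The difference between the ENU effects in the genotypes was likewise called for 0% of genes and no member by limma or voom, with an unadjusted p under 0.05 for 2 members by limma (Arntl and Npas2) and for 1 by voom. Of all 12434 genes, 844 had such a p by limma and 882 by voom. For Arntl it was 1.72 (SE 0.57, unadjusted p = 0.0109, adjusted p = 0.67) and for Npas2 1.43 (SE 0.60, adjusted p = 0.717). A p that misses the threshold does not show that the ENU effects were alike. The comparisons in saline and within genotypes share libraries, so their values for a gene are not independent.

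**Figure D4:**
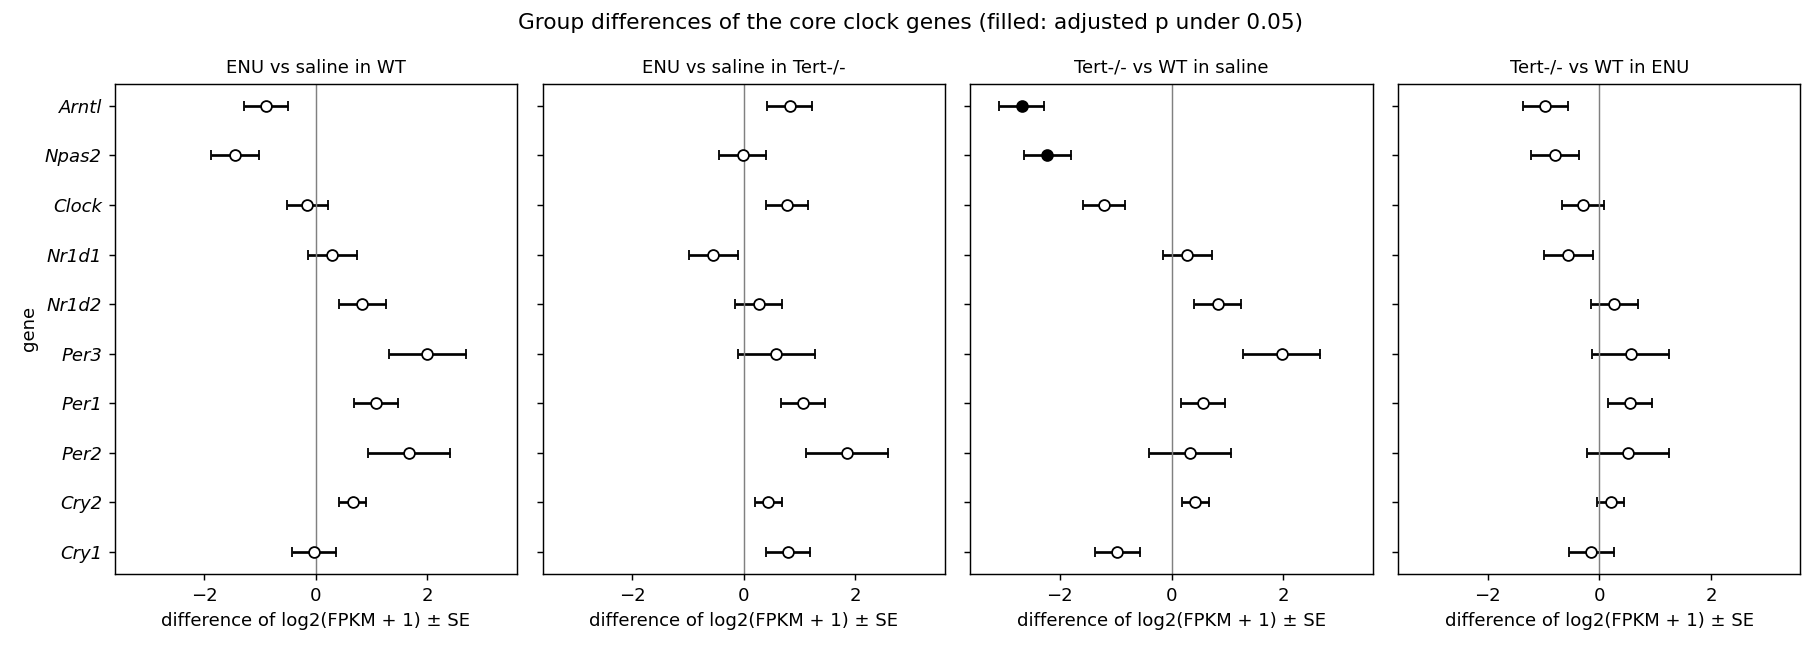
Difference of log2(FPKM + 1) ± SE from limma (horizontal axis) for the 10 genes (vertical axis) in the 4 comparisons of 2 groups, with 3 libraries in each group; filled points passed an adjusted p of 0.05. The filled points are Arntl (-2.68) and Npas2 (-2.22) in Tert-/- against WT in saline.

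Regulators that work beside the core loop were counted from lists. Of 9 tested secondary loop and output regulators, Dbp and Ciart passed for Tert-/- against WT in saline, both higher, where 5.01% of all genes were called, and the list's median difference was 0.82 against -0.19 over all genes. Dbp, the D-box activator, was 1.45, 8.67 and 1.92 FPKM in WT saline, 6.74, 75.6 and 55.6 FPKM in WT ENU, 65.6, 82.8 and 86.7 FPKM in Tert-/- saline and 45.9, 31.6 and 66.1 FPKM in Tert-/- ENU. It was low in the 4 libraries high in Arntl and at least 31.6 FPKM in the other 8, Tert-/- saline 2 included. The saline difference was 4.26 (SE 0.74, limma adjusted p = 0.0174), and that of Ciart, a repressor of the activator complex, 3.40 (SE 0.57, adjusted p = 0.0163). Without WT saline 1 or 3 no member of the list was called, without WT saline 2 there was 1, and without Tert-/- saline 2 there were 5 higher and 1 lower. Over all genes those fits called 4, 16, 54 and 1602, against 623 with all libraries. For ENU averaged over genotypes, Tef, another D-box activator, rose by 1.04 (SE 0.29, adjusted p = 0.0339) and Nfil3, the D-box repressor, fell by 0.76 (SE 0.23, adjusted p = 0.0453), where 14.1% of all genes were called, with a list median of 0.55 against 0.17; each was lost in at least 6 of the 12 fits that leave out a library. Rorb was listed at 0 in every library and was not tested. The 4 libraries low in Dbp were also low in Per3, whose window holds the D-box letters shown above, while Tert-/- saline 2 was high in Dbp and low in Per3. Whether these letters bear on the levels was not tested.

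Of 12 kinases, ubiquitin ligases and proteases acting on clock proteins, 1 passed for Tert-/- against WT in saline, a share near the 5.01% of all genes called. It was Usp2, a deubiquitinase with its own daily rhythm in liver, which was 4.59, 2.40 and 2.21 FPKM in WT saline and 38.5, 13.7 and 47.8 FPKM in Tert-/- saline. The difference was 2.96 (SE 0.55, limma adjusted p = 0.0205), and it was lost without WT saline 1, 2 or 3 (adjusted p up to 0.0954). The list's median was -0.30 against -0.19 over all genes. For 11 coactivators and corepressors of the clock, the median differences were 0.47 for ENU in Tert-/-, 0.36 averaged and -0.24 for genotype in saline.

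Cues other than light reach the liver clock through glucocorticoids and body temperature, so their known responders were read beside Per1 and Per2. None of 10 glucocorticoid-responsive genes passed in any of the 6 contrasts by limma, with list medians of -0.33 for ENU in WT and 0.40 in Tert-/-. The most abundant of them, Tat and Pck1, a transaminase and a gluconeogenic enzyme, were 2161 and 1913 FPKM in WT saline 1 against 1349 and 1178 FPKM in WT saline 2 and 1659 and 1228 FPKM in WT saline 3. WT saline 1 was thus the highest WT saline library for both, as it was for Per1, and summed over the 10 genes it held 4986 FPKM against 2913 and 3246 FPKM. Dusp1 alone of the list was not highest there, at 59.8 FPKM against 99.0 and 167 FPKM in WT saline 2 and 3. The parallel was read within WT saline only. In Tert-/- ENU, the group highest in Per1, Tat was 847 to 1123 FPKM and Pck1 1153 to 1925 FPKM. Whether these levels bear on Per1 was not tested. Of 8 temperature-responsive genes, whose median difference was 0.79 against 0.17 over all genes, Dnajb1 (0.82, adjusted p = 0.00904), Hspa1b (1.68, adjusted p = 0.0196) and Hspa1a (0.77, adjusted p = 0.0446), which encode heat shock chaperones, rose with ENU averaged over genotypes, and Cirbp, an RNA-binding protein induced by cooling, fell by 0.49 (adjusted p = 0.0246), where 14.1% of all genes were called. Rbm3, the other cooling-induced gene of the list, was 0.47 (adjusted p = 0.11) in that comparison and 0.45 (adjusted p = 0.272) for ENU in Tert-/-, opposite in sign to Cirbp. In Tert-/- alone Cirbp fell by 0.83 with ENU (adjusted p = 0.0162), and in saline it was higher in Tert-/- than in WT by 0.74 (adjusted p = 0.0395). Of these, Dnajb1 kept its call in all 12 fits that leave out a library; Hspa1a lost it in 10 of them, and the Cirbp difference in saline in 9.

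Between members, Per2 and Cry2 ran together across the 12 libraries, with Pearson r = 0.95 (permutation p = 1e-05, adjusted p = 0.00045 over the 45 pairs of members) and Spearman rho = 0.94 (adjusted p = 0.000675). Without the 2 libraries farthest from the median of Per2, r was 0.96, and for deviations from the group means it was 0.97. Cry2 and Nr1d2 (r = 0.91, rho = 0.79, adjusted p = 0.00165 and 0.0212; 0.85 without the 2 farthest) and Per2 and Nr1d2 (r = 0.86, rho = 0.73, adjusted p = 0.00202 and 0.0426; 0.80 without them) also passed by both measures. Per1 and Cry2 passed by r (0.69, adjusted p = 0.0438) and not by rho (0.63, adjusted p = 0.103), and r was 0.21 for deviations from the group means. Of all 45 pairs, 12 passed by Pearson's r, 9 of them positive. This tally includes pairs with Arntl, Npas2 or Per3, which are set aside below, and every negative pair in it holds Npas2. Per2 and Nr1d1 did not pass (r = -0.40, rho = -0.29, adjusted p = 0.328 and 0.51), nor did Per1 and Per2 (r = 0.65, rho = 0.66, adjusted p = 0.069 and 0.0862) or Nr1d1 and Nr1d2 (r = -0.23, rho = -0.34, adjusted p = 0.601 and 0.476). No pooled correlation is given for pairs with Arntl, Npas2 or Per3, since the libraries fall into separate clusters on these genes. Nr1d2 also had a gap, with no library between 18.3 and 28.2 FPKM, so its pooled values hold that split too. For deviations from the group means, r was 0.9 for Cry2 and Nr1d2 and 0.93 for Per2 and Nr1d2. The libraries share their group and, in FPKM, their scaling, so these values describe the 12 libraries.

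Outside the clock, the tested genes whose log2 values across the 12 libraries were most like Arntl were Chka (Pearson r = 0.98 as the measure of likeness), Asap2 (0.98), Dtx4 (0.97) and Kcnk6 (0.97). Chka, which encodes choline kinase alpha, was 64.3, 49.7 and 104 FPKM in WT saline, 89.7, 35.3 and 24.5 FPKM in WT ENU, 13.6, 9.31 and 12.3 FPKM in Tert-/- saline and 20.4, 33.7 and 16.6 FPKM in Tert-/- ENU. The same 4 libraries were the highest for Chka as for Arntl. Taken as deviations from the group means, the likeness of these 4 genes to Arntl was 0.87 to 0.96. The genes least like it were Slc2a5 (-0.94), a fructose transporter, Eif4ebp3 (-0.93), Atp5f1 (-0.93), Atp5g3 (-0.92) and Akr1c19 (-0.91), with -0.91 to -0.63 as deviations from the group means. The closest to Nr1d1 were Rpl36-ps2 (0.86), Ano10 (0.81), Bace2 (0.77), Morn1 (0.76) and Phka2 (0.74), and the farthest Mir1932 (-0.86), Cd24a (-0.83), Cabyr (-0.83) and Selp (-0.82). These are among the extremes of 12434 genes over 12 libraries, and those for Arntl pool the separate clusters of libraries.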

How the data were processed

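Liver RNA of 12 libraries was measured, 3 in each of 4 groups taken from the sample labels. Per the labels' protocols, total RNA was extracted with TRIzol and 3 µg went into NEBNext Ultra libraries; per the submitters' processing notes, HISAT2, HTSeq and build mm10 were used, and their versions, the annotation and the strand setting are stated by no source used here. The authors deposited 1 table of FPKM per gene. FPKM are relative to all reads in genes, so a few very abundant genes lower the values of the others, and their depth was recovered from the steps between values: 26523 of 26524 genes above 0 came out as whole reads within 0.01 reads.

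The 12434 genes that reached 1 FPKM in 3 or more libraries were fitted as log2(FPKM + 1) with limma 3.58.1 in R 4.3.3, with a mean-variance trend and 1 mean per group; the spread was shared by all 4 groups. Tests were two-sided with Benjamini-Hochberg adjustment over all 12434 genes and a threshold of 0.05. The pseudocount understates differences of low genes such as Npas2. Correlations, over 100000 permutations, and descriptions used Python 3.11.15, numpy 2.4.6, scipy 1.17.1 and pandas 2.3.3. Promoter letters were searched on both strands in RefSeq windows of GRCm38.p6. On simulated data for ENU against saline in WT (12434 genes, 200 changed), the fit called 142 genes, 7 of them falsely. It found 46% of the genes set to a log2 difference of 1 and 89% of those set to 2. The changed genes were drawn from all tested genes, whose median SD within groups was 0.285. That SD was 0.315 for Cry2, the lowest of the members, and 1.074 for Per2, the highest. The shares found therefore do not apply to the members.

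Alternatives were another pseudocount, no filter, median-ratio rescaling, voom on recovered reads, a replicate block, library quality weights, the 2 groups alone and leaving out each library. The members and gene lists were chosen with earlier results of these data known. The text names all 10 members, called genes of each list with the most abundant genes of a list without calls, and the 5 genes most and least like Arntl and Nr1d1. Some genes picked by this rule are not reported here. Principal components of the 10 genes were planned and not computed. Labels name no batch, so none was fitted.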

Additional observations from a re-analysis of the deposited data

How the results depend on the processing

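Of 767 values of the 41 gene tests recomputed under alternatives, 640 stayed on the same side of the threshold with the same sign, 98 lost a call, 28 gained one and 1 changed sign: Nr1d1 in Tert-/- against WT in saline was 0.28 and became -0.25 (adjusted p = 0.686) with library quality weights. The cause was not tested. These 41 tests do not cover every member in every comparison. For ENU averaged over genotypes, the 2 called members became 1 with a pseudocount of 0.1, 0 without the filter, 0 after median-ratio rescaling, 0 with voom on recovered reads and 4 with quality weights, and 0 to 4 when each library was left out. For Tert-/- against WT in saline, the 2 called members became 1 without the filter, 1 with voom, 1 with the 2 groups alone (Npas2 lost in each) and 6 with quality weights, and 0 to 5 when each library was left out. For ENU in WT, 0 became 5 with quality weights and 0 to 3 when each library was left out; for ENU in Tert-/- the range was 0 to 1. For Tert-/- against WT after ENU and for the difference between the ENU effects, no alternative run gave a called member. Without the filter more genes are tested, and the 2 groups alone leave fewer libraries for the spread. For ENU in WT the 2 groups alone called 1111 genes and the fit without the filter 139, against 124 in the main fit. The causes of these changes were not tested. The quality weights gave Tert-/- saline 2 a weight of 0.045, against 0.484 to 2.302 for the others. With these weights calls rose over the whole table. They went from 1749 to 4387 genes for ENU averaged over genotypes and from 124 to 1882 for ENU in WT. For Tert-/- against WT in saline they went from 623 to 2554.

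Replicate numbers were not treated as pairs: deviations of same-numbered libraries correlated between -0.156 and 0.208. With the replicate block, called members for ENU averaged over genotypes were 3, the added one being Cry2 (adjusted p = 0.0475), and calls over all genes were 344 for Tert-/- against WT in saline, against 623 without it. With 3 libraries a group, differences of 1 on the log2 scale were often missed in the simulation, and Npas2 at 0 to 12 reads is limited by depth.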
